A study of Lupinus albus with 12 samples.

Results

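White lupin (*Lupinus albus*) roots kept in sucrose for 15 min were compared with control roots for 15916 genes. These are the genes with a deposited value of at least 1 in at least 3 of the 6 libraries concerned, and they make up 67.9% of the 23427 genes in the value table. The other 7511 genes were not tested. All plants were wildtype white lupin of the cultivar Amiga, kept in hydroponics with Hoagland solution for 21 days. The labels name no difference between the groups besides sucrose and its time. Control roots were harvested at 0 min and treated roots after 15 min in 10 mM sucrose. The methods describe no mock addition and no control kept for 15 min, so sucrose cannot be told apart from handling and elapsed time. Both groups of libraries came from root sections that included the tip. Each group had 3 libraries, and 2 further groups of 3 libraries after 10 and 20 min in sucrose complete the 12 libraries of the series. Each replicate number had its own Nanopore flow cell, so that control and treated libraries of the same number are paired by flow cell and not by plant. According to the labels a replicate stands for 3 plants, and according to the methods for 1. Bulk RNA from a root section cannot tell more RNA per cell from more cells of a type.

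Sucrose is the main form in which carbon moves from shoot to root, and it also acts as a signal that changes gene expression. In white lupin it is known as a shoot-borne signal in the formation of cluster roots, the dense rootlet clusters that release acids and phosphatases when phosphate or iron is scarce. Its signalling is tied to hormones such as auxin and gibberellin, to secreted peptides, and to enzymes that loosen the cell wall during growth.

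The values carry the name CPM but are whole numbers of unknown scale. Totals over the 6 libraries ran from 184071 in control library 2 to 407780 in control library 3, and the main fit did not scale the libraries. The reads behind a single value are unknown, and a 0 is given only as a listed value. Values are listed in the order of replicates 1, 2 and 3, and library 1 of a group is its replicate 1. Casparian strip, dirigent and suberin genes, listed here as markers of root tissue, were detected in every library. Their summed values were 3234, 2267 and 2054 in control roots and 1701, 2498 and 1771 at 15 min. The photosystem genes, which mark green tissue, summed to 379, 661 and 1591 in control roots and to 362, 373 and 1722 at 15 min, so that flow cell 3 was the highest in both groups. No leghemoglobin, the marker of nitrogen-fixing nodules, was found among the protein names of the table.

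Of the 15916 genes, 78 were up-regulated after 15 min (0.49%) and 20 were down-regulated (0.126%). Counts of called genes in the lists below stand beside these shares, and no list was tested against them. Where a list held no called gene, this is near these shares and is no result about its genes. A gene was called where its log2 FC reached 1.5 in either direction with a raw (unadjusted) limma *p*-value no larger than 0.05. The log2 FC is the mean of log2(value + 1) at 15 min minus that in control roots. Both numbers are the thresholds of the original study, which applied them to DESeq2 estimates, so its log2 FC is another measure. A raw *p*-value no larger than 0.05 was found for 350 genes (2.2%). This is less than the share of 0.05 that the threshold would pass on average if no gene differed. So are the shares given below for the flow cell model (3.4%), genes with a mean of at least 50 (0.859%) and 15 min against 10 and 20 min (1.36%). After Benjamini-Hochberg adjustment over all genes a single gene remained (0.00628%), so that every other call below is one at the unadjusted threshold. The adjusted limma *p*-value was 0.55 or more for all other called genes, and it is printed below only where it is under 1. With 3 libraries a side the smallest exact *p*-value is 0.1, so no exact test was used. Over all genes the log2 FC had a median of 0.08. The up-regulated genes ranged from 1.5 to 6.04 with a median of 1.86, and 48 of the 78 had a mean value under 5 over the 6 libraries. The values of the groups did not overlap for 53 of the 78 and for 14 of the 20 down-regulated genes. Over all genes tested this was so for 298 in the upward (1.87%) and 98 in the downward direction (0.616%), but these counts are part of what the call already measures.

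**Figure D1:**
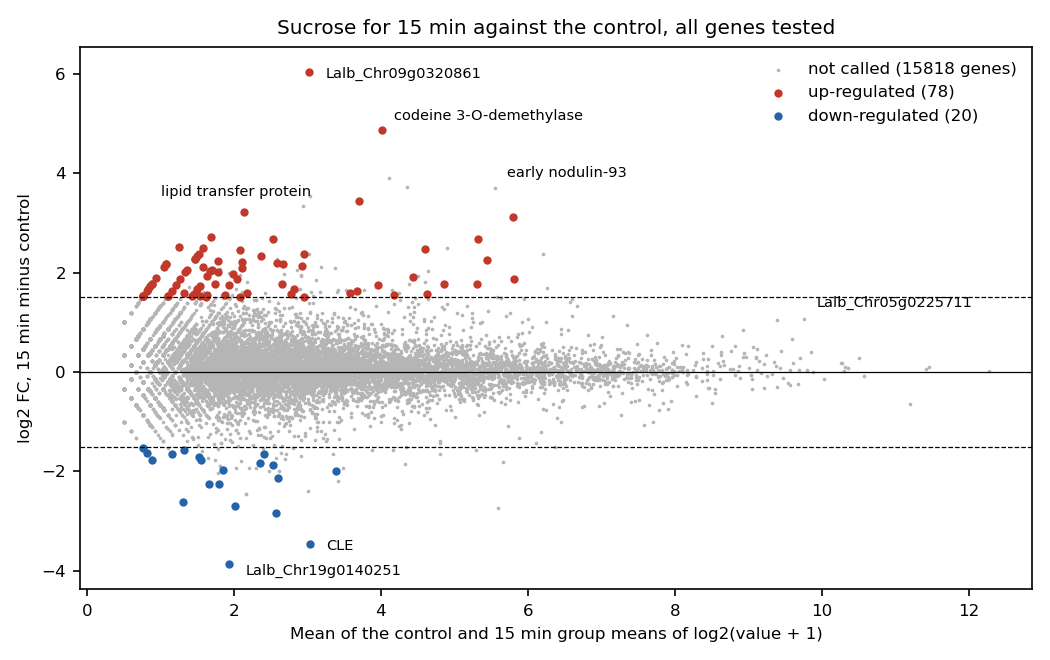
Each point is a gene, with the mean of its control and 15 min group means of log2(value + 1) on the x axis and its log2 FC (15 min minus control) on the y axis. The 78 up-regulated genes are red, the 20 down-regulated genes blue, and the dashed lines mark a log2 FC of 1.5 in each direction. Most called genes lie at low values, whereas the lipid transfer protein gene Lalb_Chr05g0225711, with a log2 FC of 1.06, lies far to the right.

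The calls depended strongly on single libraries. With each of the 6 libraries left out in turn, 28 of the 78 up-regulated and 5 of the 20 down-regulated genes were called every time. Leaving out control library 1, control library 3 or 15 min library 1 raised the number of up-regulated genes to 126, 195 and 136. The down-regulated genes numbered 33 and 55 without control libraries 1 and 2, and 39 and 55 without 15 min libraries 2 and 3. When the model included the flow cell, it called 99 genes upward (0.622%) and 32 downward (0.201%), among them all of the 78 and the 20, and 541 genes had a raw *p*-value no larger than 0.05 (3.4%).

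Within flow cells 1, 2 and 3, the median difference of the 78 up-regulated genes between the 15 min and the control library was 2.00, 2.18 and 1.74 on the log2 scale. For the 20 down-regulated genes it was -1.58, -1.77 and -2.32, and over all genes 0.00, 0.48 and 0.00. The direction was the same in all 3 flow cells for 68 of the 78 and 18 of the 20 genes, which was so for 907 genes upward (5.7%) and 379 downward (2.38%) over all genes tested. Control library 3 alone held the highest control value for 32 of the up-regulated genes, against 19 for control library 1 and 5 for control library 2. It also held the highest for 14 of the 20 down-regulated genes.

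**Figure D2:**
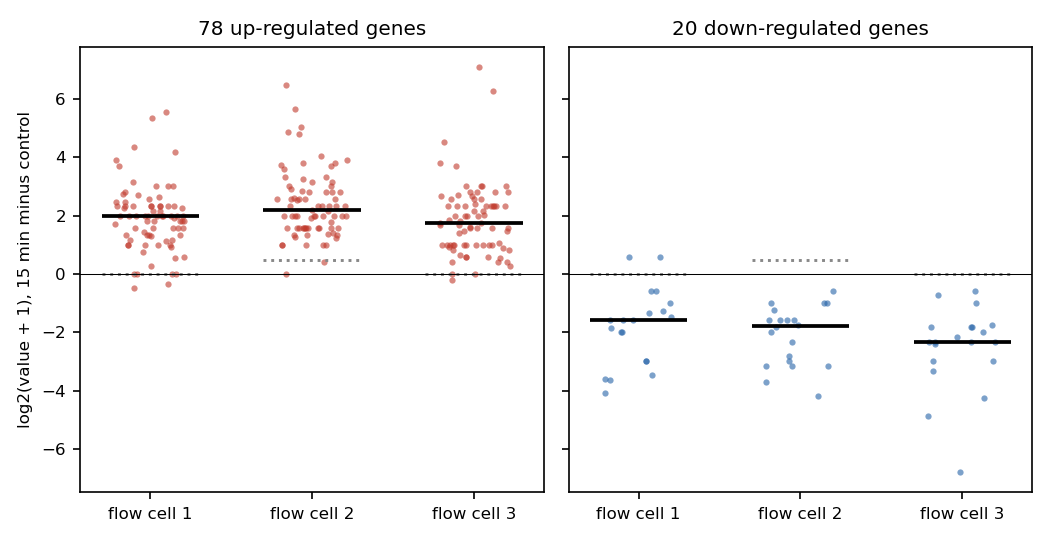
Each point is a called gene, plotted as log2(value + 1) of the 15 min library minus that of the control library of the same flow cell, for the 78 up-regulated (left) and 20 down-regulated genes (right). Black bars are the medians of the called genes, at 2.00, 2.18 and 1.74 on the left and -1.58, -1.77 and -2.32 on the right, and dotted bars are the medians of all 15916 genes. The called genes were selected by these same values.

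Transcription factors of the basic helix-loop-helix (bHLH) family, which bind DNA as dimers and act in light, hormone and nutrient responses, held 4 up-regulated and 0 down-regulated members among 128 tested. The family as a whole had a median log2 FC of 0.10, close to the 0.08 of all genes, with 54.7% of its members above 0 against 56.2% of all genes. Lalb_Chr07g0177941 (chromosome 7, 541239 to 542437) had values of 1, 0 and 30 in control roots and 40, 32 and 57 at 15 min. All treated libraries were above all control libraries, although control library 3 came close to 15 min library 2. The log2 FC of this gene was 3.44 (SE 1.03), and the difference within flow cells 1, 2 and 3 was 4.36, 5.04 and 0.90. Lalb_Chr05g0213931 (chromosome 5, 1657883 to 1660060) was listed at 0 in every control library and had values of 5, 1 and 2 at 15 min. It was above 0 in every 15 min library, and listed at 0 in all 10 min libraries and at 0, 1 and 1 at 20 min. Without 15 min library 1 its difference of 1.72 was 1.29 and the call was lost. The other 2 bHLH genes, Lalb_Chr02g0158971 and Lalb_Chr17g0347051, had log2 FC of 2.68 and 2.33 and kept their call with each library left out.

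Among the other transcription factor families, WRKY proteins, regulators of defence and stress responses, held 2 up-regulated genes of 52 tested. Lalb_Chr24g0393641 had values of 0, 0 and 1 in control roots and 3, 2 and 11 at 15 min. The groups did not overlap, and the log2 FC was 2.06 (SE 0.68), but 1.46 without 15 min library 3, which ended the call. Lalb_Chr04g0264471 had 8, 1 and 0 in control roots and 8, 8 and 5 at 15 min. Its groups overlapped, and its log2 FC of 1.58 became 2.47 without control library 1. It dropped to 1.39 and 0.89 without control libraries 2 and 3 and to 1.49 without 15 min library 1 or 2, which ended the call each time. MYB-like factors held 1 up-regulated gene of 148, Lalb_Chr03g0029071, with 1, 1 and 0 in control roots and 8, 5 and 4 at 15 min. It rose in all 3 flow cells by 2.17, 1.58 and 2.32, its log2 FC was 2.03 (SE 0.58), and no single library decided the call. The C2H2 zinc finger family held 1 of 240, Lalb_Chr19g0133271, which was listed at 0 in control roots and had 4, 1 and 4 at 15 min.

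The AP2-EREBP factors, a family that includes ethylene response factors, held 1 gene called in each direction among 96. Lalb_Chr04g0262881 had values of 0, 1 and 4 in control roots and 4, 5 and 15 at 15 min. The highest control value equalled the lowest treated value. Its log2 FC of 1.86 (SE 0.69) dropped to 1.31 without control library 1 and 1.35 without 15 min library 3, and neither passed. Lalb_Chr15g0086951 had 2, 1 and 3 in control roots and was listed at 0 at 15 min, and its difference was -1.29 and not called without control library 3. A NAM factor of the NAC family, which acts in development and senescence, was the only down-regulated member of 40 tested. This gene, Lalb_Chr19g0134331, had 4, 6 and 3 in control roots and 1, 0 and 1 at 15 min, without overlap. This gave a log2 FC of -1.71 (SE 0.58), and without control library 2 or 15 min library 2 it was -1.49 and -1.38 and was not called.

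Among 45 tested genes for secreted peptides that act as signals between cells, 2 were called up-regulated and 1 down-regulated. Over all tested genes the shares were 0.49% and 0.126%, and the list was not tested against them. Lalb_Chr02g0148131 (chromosome 2, 4151440 to 4152196) encodes a rapid alkalinization factor (RALF), a peptide family that in *Arabidopsis* raises the pH outside the cell and restrains root growth. Its values were 0, 2 and 2 in control roots and 7, 6 and 5 at 15 min, so that the groups were well apart. On average the log2 FC was 1.74 (SE 0.43). The call rested on control library 1, the library at 0: without it the log2 FC was 1.21. Lalb_Chr16g0378251, named as an encoded peptide, had 1, 0 and 3 in control roots and 3, 5 and 19 at 15 min. Flow cell 3 was the highest in both groups, and the log2 FC was 1.97 (SE 0.79). Neither control library 1 (1.97 without it), control library 2 (1.47) nor 15 min library 3 (1.29) could be left out without losing the call.

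The down-regulated peptide gene, Lalb_Chr05g0218731 (chromosome 5, 4476976 to 4477515), is a CLAVATA3/ESR (CLE) gene, a family whose short peptides control stem cells in meristems. It had values of 17, 9 and 110 in control roots and 4, 2 and 0 at 15 min. Every treated library was below every control library, most of all in flow cell 3, where the difference was -6.79 against -1.85 and -1.74 in flow cells 1 and 2. The log2 FC was -3.46 (SE 0.90), with a range of -4.18 to -2.44 over the fits that each leave out a library. At 10 min the values were 16, 7 and 32, and at 20 min 4, 9 and 2; comparisons of these times with the control would share its libraries. Another CLE gene, Lalb_Chr03g0031061, was called down-regulated with the flow cell in the model, with 56, 59 and 34 in control roots and 6, 39 and 13 at 15 min (log2 FC -1.64). This gene and the others named for the flow cell term were chosen after their values had been seen.

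Hormone genes were called in counts of at most 2 per list. Over all tested genes 0.49% were up-regulated, and no list was tested against that share. Small auxin-up RNA (SAUR) genes, early auxin-induced genes linked to cell expansion, held 1 up-regulated gene of 47, and genes of auxin response and transport held 2 of 72. The SAUR gene Lalb_Chr08g0243451 had values of 1, 0 and 19 in control roots and 9, 9 and 54 at 15 min. Its groups overlapped, since control library 3 was above 15 min libraries 1 and 2, and the difference within flow cells was 2.32, 3.32 and 1.46. Its log2 FC was 2.37 (SE 1.04). Without control libraries 1, 2 and 3 it was 1.98, 1.48 and 3.64, without 15 min library 3 it was 1.55, and only the fit without control library 3 among these kept the call. The SAUR gene Lalb_Chr03g0025221, listed by the study for all times, was above 0 in too few of the 6 libraries to be tested. With the flow cell in the model the SAUR gene Lalb_Chr03g0025211 was also called (3, 1 and 6 against 20, 18 and 7, log2 FC 1.94). In the opposite direction Lalb_Chr02g0156061 was then called as well, with 0, 45 and 24 against 0, 0 and 6 (log2 FC -2.45).

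The auxin transport genes were called at low values. The auxin efflux carrier Lalb_Chr12g0199691, of the family that exports auxin from cells, was listed at 0 in every control library and had 3, 2 and 1 at 15 min. Its call was lost without 15 min library 1, where the difference of 1.53 was 1.29. The WAT1-related gene Lalb_Chr22g0353301, of a family of transporters that in *Arabidopsis* moves auxin across the vacuole membrane, had a log2 FC of 1.86, and of 1.46, below the threshold, without 15 min library 2. The auxin response and transport genes as a whole had a median log2 FC of -0.02, with 41.7% above 0.

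Among 49 genes with gibberellin or GRAS in their protein name, only the 2 gibberellin-regulated genes Lalb_Chr02g0159351 and Lalb_Chr08g0235731 were called. Members of this family are short cysteine-rich proteins. Lalb_Chr02g0159351 had 13, 3 and 70 in control roots and 77, 117 and 111 at 15 min, and Lalb_Chr08g0235731 had 19, 2 and 113 in control roots and 124, 150 and 235 at 15 min. In both genes control library 2 was the lowest library and control library 3 the highest control, and the groups did not overlap. Their log2 FC was 2.67 (SE 0.83) and 3.12 (SE 0.99), and without control library 2 it was 1.68 and 1.78, which still passed. Lalb_Chr08g0235731 was not called when only the 6 control and 15 min libraries were fitted, with the log2 FC unchanged. Whether the pair shares reads was not tested. The list had a median of 0.02.

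The list of jasmonate and lipoxygenase genes, matched by protein name, had 87.5% of 32 tested genes above 0, against 56.2% of all genes. Its median log2 FC was 0.39, against 0.08. The median of all genes was itself -0.07 without control library 2 and 0.26 without 15 min library 1, and that of the list was not refitted. Only 1 of the 32 was called, and 3 had a raw *p*-value no larger than 0.05. It was Lalb_Chr09g0324131 (chromosome 9, 2542254 to 2543759), a TIFY (JAZ) gene, whose product represses jasmonate responses and is itself induced by the hormone. It had values of 0, 2 and 2 in control roots and 12, 5 and 8 at 15 min, without overlap. The log2 FC was 2.10 (SE 0.59), and the call held with each library left out, between 1.57 and 2.38. The lipoxygenase gene Lalb_Chr01g0013531, of a family that includes enzymes of jasmonate synthesis, had 5, 4 and 0 in control roots and 24, 7 and 3 at 15 min. It was called only with the flow cell in the model (log2 FC 1.58).

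No gene of ethylene synthesis and signalling (17 tested), cytokinin and phosphorelay signalling (30) or abscisic acid (3) was called without the flow cell in the model. In lists of this size that is near the background of 0.616% of all tested genes called and is no result about these genes. A raw *p*-value no larger than 0.05 was found for 1, 1 and 0 of these genes. With the flow cell in the model, the ACC oxidase gene Lalb_Chr20g0119141, of the last step of ethylene synthesis, was called up-regulated. Its values were 9, 9 and 9 in control roots and 19, 15 and 97 at 15 min, all treated libraries being higher (log2 FC 1.66). In the GO term for the ethylene-activated signaling pathway, 0 of 37 tested genes were called and 0 had a raw *p*-value no larger than 0.05. In the deposited table the GO term for response to sucrose was given to only 2 tested genes, of which 0 were called, and called genes without any GO term there, such as Lalb_Chr08g0235731, could not be counted.

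**Figure D3:**
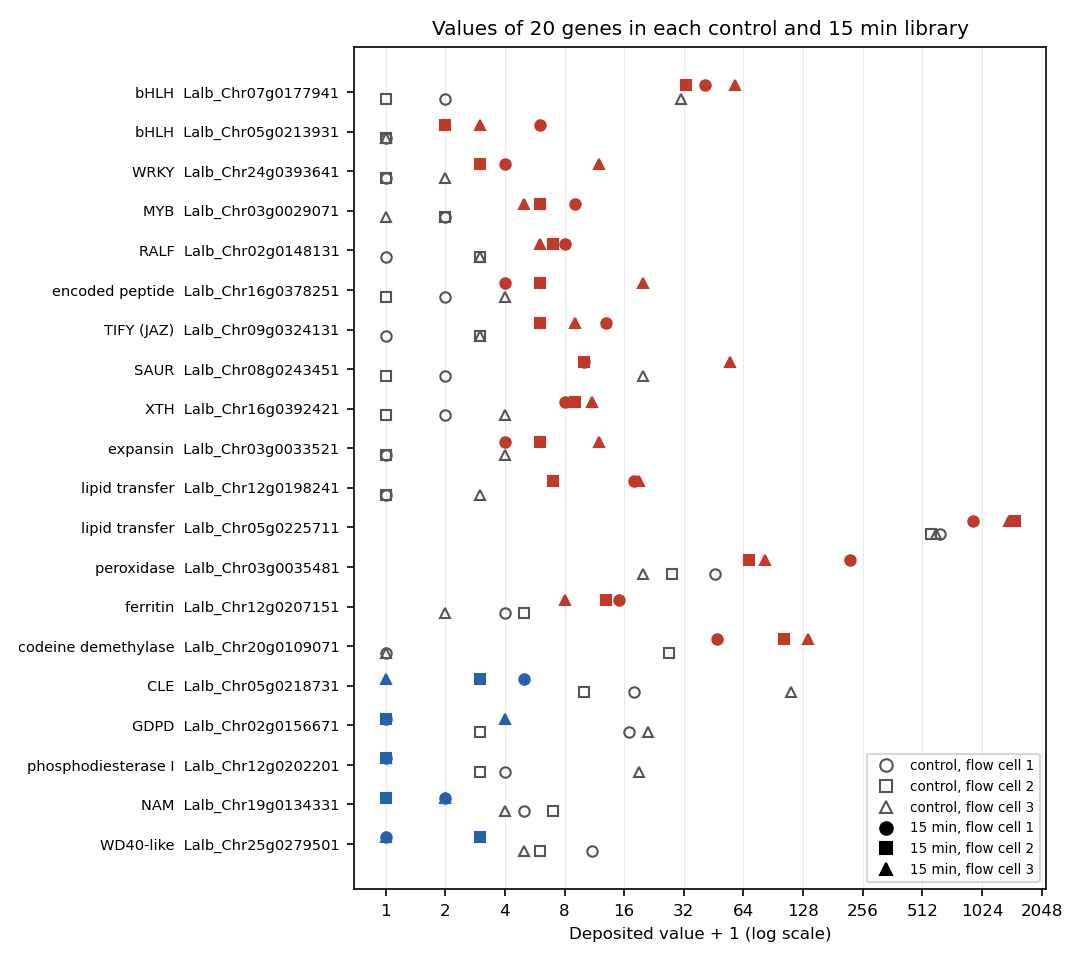
Deposited values plus 1 (log scale) of 20 genes in the 3 control libraries (open symbols) and the 3 libraries after 15 min in sucrose (filled symbols, red for a positive and blue for a negative log2 FC), with the symbol giving the flow cell. The open triangle of control library 3 lies near the treated libraries for the bHLH gene Lalb_Chr07g0177941 (30 against 40, 32 and 57). For the CLE gene it lies far above all others (110).

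The calls in 3 lists of cell wall genes were upward, while only 0.126% of all tested genes were called downward, so that nothing is read from the absence of downward calls. Expansins, which loosen the wall during growth, held 2 up-regulated genes of 26, xyloglucan endotransglucosylase/hydrolases (XTH), which cut and rejoin xyloglucan, 1 of 24, and pectin-modifying genes 1 of 61. The XTH gene Lalb_Chr16g0392421 (chromosome 16, 14226212 to 14228261) had values of 1, 0 and 3 in control roots and 7, 8 and 10 at 15 min. The groups were apart, with differences of 2.00, 3.17 and 1.46 within the flow cells. The log2 FC of this gene was 2.21 (SE 0.49) and lay between 1.71 and 2.71 with each library left out. The expansin gene Lalb_Chr03g0033521 had 0, 0 and 3 in control roots and 3, 5 and 11 at 15 min, and control library 3 equalled 15 min library 1. This gave a log2 FC of 2.06 (SE 0.65), and no single library decided the call. The expansin gene Lalb_Chr01g0008521 had 0, 0 and 5 against 4, 5 and 7, and its log2 FC of 1.77 was not called without control library 1 or 2 (1.34 each) or 15 min library 3 (1.59). The pectinesterase Lalb_Chr04g0253941, of the enzymes that remove methyl groups from pectin, was listed at 0 in control roots and had 3, 3 and 1 at 15 min.

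The medians of these 3 groups were 0.01, -0.08 and 0.13, near the 0.08 of all genes. Of 37 cellulose synthase, COBRA and fasciclin-like genes, which act in building the wall, 0 were called by limma and 2 had a raw *p*-value no larger than 0.05. Their median was 0.33, and 78.4% were above 0. The arabinogalactan peptide Lalb_Chr02g0157141, of a family of wall glycoproteins, stayed just under the fold threshold. Its values were 92, 45 and 46 in control roots and 160, 199 and 130 at 15 min, without overlap (log2 FC 1.46, SE 0.60). It was chosen after its values had been seen.

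Lipid transfer proteins, small secreted proteins that carry lipids at the cell surface, held the up-regulated gene with the smallest *p*-value. Among 46 tested, 3 were up-regulated, and the median log2 FC was 0.29. Lalb_Chr12g0198241 (chromosome 12, 1310325 to 1312808) had values of 0, 0 and 2 in control roots and 17, 6 and 18 at 15 min. All treated libraries were above all controls, by 4.17, 2.81 and 2.66 within the flow cells. On average the log2 FC was 3.21 (SE 0.54, limma adjusted *p* = 0.55), and it lay between 2.95 and 3.74 with each library left out. Lalb_Chr05g0225621 had 17, 4 and 86 in control roots and 38, 81 and 263 at 15 min, and Lalb_Chr15g0081801 had 10, 1 and 49 in control roots and 20, 55 and 160 at 15 min. Both were highest in flow cell 3 and lowest in control library 2, and their groups overlapped. Their log2 FC of 2.25 (SE 0.91) and 2.48 (SE 1.05) were 1.26 and 1.29 without control library 2. Neither was called without control library 1 (2.18 and 2.52), control library 2 or 15 min library 3 (1.51 and 1.73), nor was Lalb_Chr15g0081801 without 15 min library 2 (2.49).

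A pair of lipid transfer protein genes on chromosome 5 had groups that did not overlap but stayed under the fold threshold. Lalb_Chr05g0225711 (9196941 to 9197739) had 626, 567 and 600 in control roots and 921, 1500 and 1405 at 15 min. Lalb_Chr05g0225671 (9149581 to 9150484) had 480, 429 and 493 in control roots and 701, 1156 and 1106 at 15 min. In both genes the controls lay close together and all treated libraries lay above them. The log2 FC was 1.06 (SE 0.36) and 1.05 (SE 0.35), and it stayed between 0.92 and 1.28 in both genes with each library left out. The values of the pair run in a nearly constant ratio across libraries, so reads may be shared between the copies and the pair may be a single signal. At 10 min they were higher still, with 1791, 2058 and 1753 for Lalb_Chr05g0225711 and 1406, 1651 and 1373 for Lalb_Chr05g0225671. The other 2 lipid transfer genes with a call had it only with the flow cell in the model. Of these, Lalb_Chr17g0337121 had 1, 1 and 9 in control roots and 4, 8 and 36 at 15 min, a difference of 1.32, 2.17 and 1.89 within the flow cells (log2 FC 1.79).

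Of the 1048 genes with a mean value of at least 50, 5 were up-regulated (0.477%) and 0 were down-regulated by limma, and 9 had a raw *p*-value no larger than 0.05 (0.859%). The 5 were the codeine 3-O-demethylase gene below, the 2 gibberellin-regulated genes, a lipid transfer gene and a peroxidase gene. The 5 negative differences with the smallest *p*-values in this group were not called. The SCP-domain gene Lalb_Chr12g0199201, of a family of secreted pathogenesis-related proteins, had 70, 57 and 110 in control roots and 21, 44 and 48 at 15 min, without overlap (log2 FC -1.08). The pectinesterase Lalb_Chr05g0222341 had 92, 96 and 106 against 59, 84 and 38, also without overlap (log2 FC -0.76). The uncharacterized genes Lalb_Chr22g0352431, Lalb_Chr07g0178731 and Lalb_Chr19g0133921 had log2 FC of -1.01, -1.33 and -1.82, and their groups overlapped. The last of these was called with the flow cell in the model. Without control library 3 the log2 FC of Lalb_Chr07g0178731 and Lalb_Chr19g0133921 was -1.71 and -2.62, without 15 min library 1 it was -1.80 for the former, and without 15 min library 2 it was -2.58 for the latter, and each passed.

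The early nodulin-93 gene Lalb_Chr07g0178771 (chromosome 7, 960733 to 961762), of a family that is also expressed outside nodules and under low oxygen, was called only with the flow cell in the model. Its values were 4, 2 and 143 in control roots and 77, 64 and 952 at 15 min. Flow cell 3 was far above the others in both groups, but the treated library exceeded the control of the same flow cell each time, by 3.96, 4.44 and 2.73. Its log2 FC of 3.71 was not called in the fit without flow cells (SE 1.72). With the flow cell in the model it was called (SE 0.52, limma adjusted *p* = 0.171). A hypoxia-induced protein gene, Lalb_Chr08g0231331, followed the same pattern with 7, 2 and 82 in control roots and 16, 31 and 643 at 15 min. The difference was 1.09, 3.42 and 2.96 within the flow cells (log2 FC 2.49, limma adjusted *p* = 0.475 with that term). The early nodulin-93 and hypoxia list held 8 tested genes, of which 0 were called without the flow cell term and 2 with it. Its median log2 FC was 0.30 with 62.5% above 0, against 0.08 and 56.2% for all genes, and its lowest log2 FC was -0.16.

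The gene with the largest log2 FC among these 5 highly valued genes, Lalb_Chr20g0109071 (chromosome 20, 963465 to 963691), is annotated as a codeine 3-O-demethylase, a dioxygenase named after an enzyme of opium poppy. Its values were 0, 26 and 0 in control roots and 46, 102 and 135 at 15 min. Control library 2 was the only control above 0 and still lay below every treated library. Its log2 FC was 4.86 (SE 1.12), with differences of 5.55, 1.93 and 7.09 within the flow cells and between 4.07 and 6.44 with each library left out. Without all libraries of flow cell 3 it was 3.74 and not called. At 10 min the values were 39, 102 and 145, and at 20 min 150, 465 and 101. The other 4 tested genes of this name were not called.

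Class III peroxidases, secreted enzymes that use hydrogen peroxide at the wall, held 3 up-regulated genes of 47, and the GO term for response to oxidative stress held 3 of 61. Lalb_Chr03g0035481 (chromosome 3, 6742399 to 6744649) had values of 45, 27 and 19 in control roots and 221, 67 and 81 at 15 min. The groups did not overlap, and flow cell 1 was the highest in both. The log2 FC of this gene was 1.86 (SE 0.70), with differences of 2.27, 1.28 and 2.04 within the flow cells. It was not called without control library 3 (1.58) or 15 min library 1 (1.34). Lalb_Chr10g0103691 had 0, 2 and 0 against 4, 3 and 3, and Lalb_Chr02g0143031 had 1, 0 and 0 against 1, 2 and 7. Without control library 3 their log2 FC of 1.58 and 1.53 became 1.31 and 1.36, below the threshold. The same happened to the former without control library 1 (1.31) or 15 min library 1 (1.47), and to the latter without control library 2 (1.36) or 15 min library 3 (0.96). None of 152 genes for glutathione, thioredoxin and related redox proteins was called by limma, and 3 had a raw *p*-value no larger than 0.05.

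Further secreted genes were called singly. The plant defensin Lalb_Chr08g0237751, a small antimicrobial protein, had values of 18, 12 and 15 in control roots and 47, 44 and 70 at 15 min. All treated libraries were well above the controls, with differences of 1.34, 1.79 and 2.15 within the flow cells. This gave a log2 FC of 1.76 (SE 0.77). The *p*-value was no longer under 0.05 with any of the 6 libraries left out, although the log2 FC stayed between 1.56 and 1.89. The dirigent gene Lalb_Chr25g0282441, of a family that guides the coupling of lignan and lignin precursors, had 1, 0 and 2 against 6, 4 and 3 (log2 FC 1.51, SE 0.63). Its call was lost without control libraries 1 and 2 (1.58 and 1.08) and without 15 min libraries 1 and 2 (1.3 and 1.54). Per the deposited annotation, 60 tested genes carry the exact GO term for defense response, of which 0 were called by limma and 1 had a raw *p*-value no larger than 0.05, and the defensin above is not among them because it carries a more specific term for fungi. The GO term for extracellular region held 7 up-regulated and 0 down-regulated genes of 171, with a median of 0.09.

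The lists of genes that handle sugar held no called gene, which is near the background of 0.616% of all tested genes called and is therefore no result about these genes. Sucrose and trehalose metabolism (25 tested), sugar transporters and SWEETs (47) and glycolysis (56) had 0 called genes in limma, with 0, 1 and 1 genes at a raw *p*-value no larger than 0.05. Their log2 FC ranged from -0.72 to 0.94, -0.69 to 1.19 and -0.41 to 1.00. The medians of the former were 0.00 and 0.11, while glycolysis had a median of 0.19 with 75% of its genes above 0. Genes of the mitogen-activated protein kinase cascade (40) and EF-hand and calmodulin genes (64) also had 0 called genes by limma, with 0 and 1 at the unadjusted *p*-value. CAMK-group kinases (3) and leucine-rich repeat receptor kinases (6) had 0 called and 0 at that *p*-value. These lists were matched by words in the protein name and may miss members of a family. With the flow cell in the model 1 of the EF-hand genes was called, Lalb_Chr08g0243401, named as a serine/threonine-protein phosphatase with EF-hands. It had 11, 1 and 64 in control roots and 21, 35 and 110 at 15 min, with overlapping groups (log2 FC 1.94, SE 0.99 without the flow cell term). Aquaporins (28), proton pumps (34), and genes for nitrate and ammonium (13) had 0 called, with 1, 1 and 0.

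Nutrient genes were called in 2 groups. Among 32 genes for iron and riboflavin, 2 were up-regulated. Ferritin, the protein that stores iron in plastids, is encoded by Lalb_Chr12g0207151 (chromosome 12, 13400706 to 13405228), which had values of 3, 4 and 1 in control roots and 14, 12 and 7 at 15 min. The treated libraries were higher by 1.91, 1.38 and 2.00 within the flow cells, an even rise for values this low. On average the log2 FC was 1.76 (SE 0.63, and SE 0.38 with the flow cell in the model). Without control library 3 or 15 min library 1 it was 1.37 and 1.58 and was not called. Lalb_Chr20g0122831, a DHBP synthase of riboflavin synthesis, had 1, 0 and 1 in control roots and 8, 6 and 1 at 15 min. It did not differ in flow cell 3, and its log2 FC of 1.66 (SE 0.74) held its call only without 15 min library 3. The values without control libraries 1, 2 and 3 were 1.83, 1.33 and 1.83, and without 15 min libraries 1 and 2 they were 1.24 and 1.42. Among 28 genes of the phosphate deficiency list 1 was called, the acid phosphatase Lalb_Chr21g0312481, an enzyme that frees phosphate from organic compounds. It had 11, 4 and 19 against 26, 28 and 37, without overlap (log2 FC 1.54, SE 0.60), and was not called without control library 2 (1.00) or 15 min library 3 (1.4).

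Enzymes of secondary metabolism contributed 2 of 67 glycosyltransferases, which attach sugars to small molecules, and 1 of 21 cytochromes P450. The glycosyltransferase Lalb_Chr17g0342451 had 1, 0 and 0 in control roots and 1, 12 and 4 at 15 min, and Lalb_Chr20g0110631 was listed at 0 in control roots and had 4, 3 and 1. The former did not change in flow cell 1, and its log2 FC of 2.01 was 1.33 and not called without 15 min library 2. The latter had a difference of 1.77, and of 1.5 without 15 min library 1, where its *p*-value no longer passed. The cytochrome P450 Lalb_Chr03g0026901 had 18, 3 and 4 against 14, 37 and 19, and was lower after sucrose in flow cell 1. Its log2 FC of 1.64 (SE 0.59) became 1.21 and 1.37 without control libraries 2 and 3 and 1.26 without 15 min library 2, and was then not called. Flavonoid and phenylpropanoid genes had 0 of 57 called by limma and 0 at a raw *p*-value no larger than 0.05, with a median of 0.33 and 71.9% above 0.

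**Figure D4:**
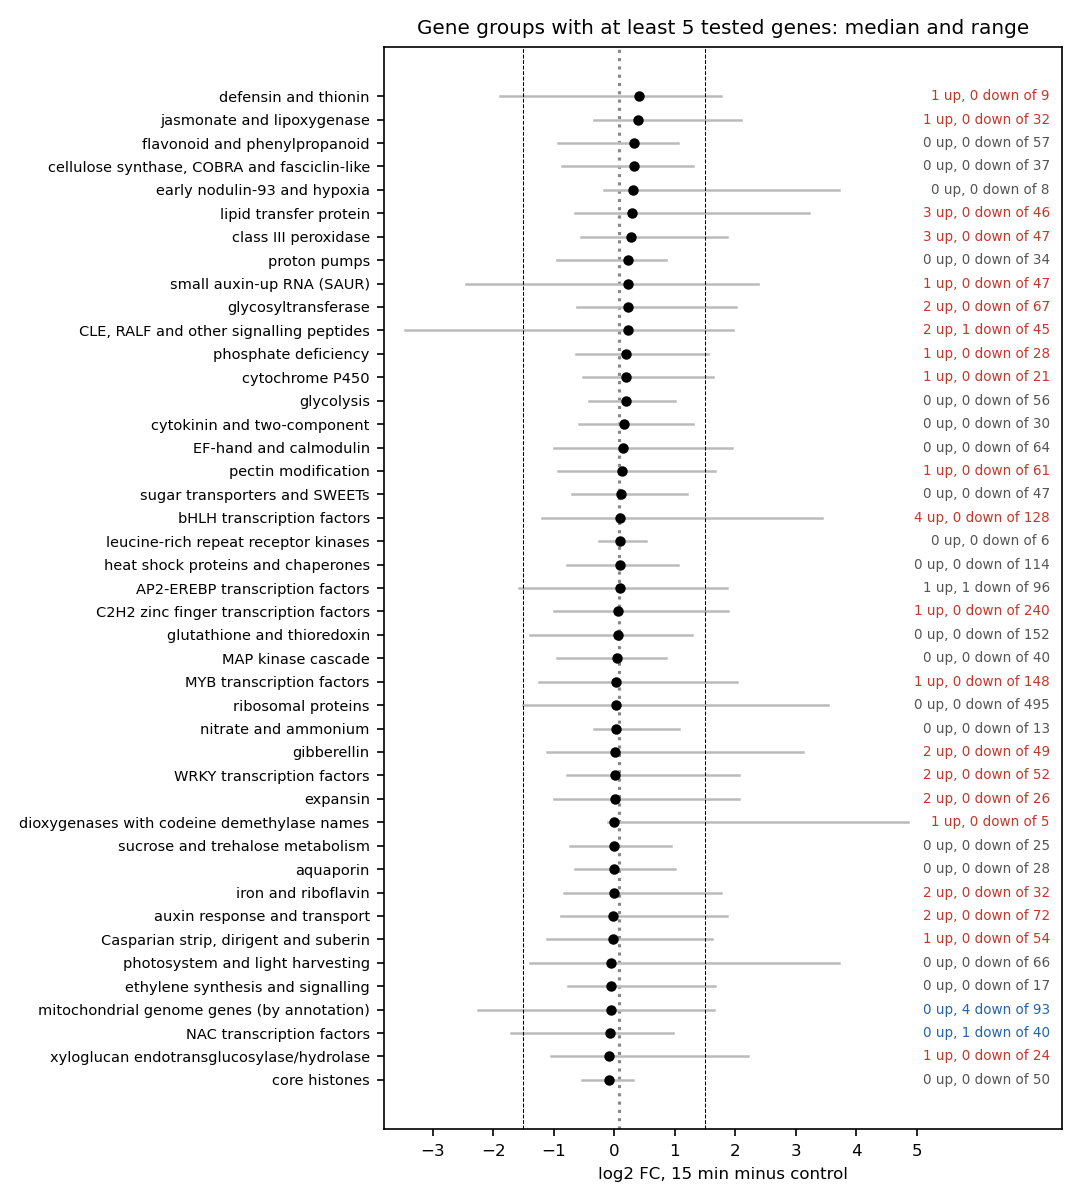
Median (black dot) and range (grey line) of the log2 FC, 15 min minus control, of each gene group with at least 5 tested genes, with the counts called up and down on the right. The dotted line is the median of all genes, 0.08, and dashed lines mark a log2 FC of 1.5 in each direction. The group of defensins and thionins and that of jasmonate and lipoxygenase genes have the highest medians (0.41 and 0.39) and core histones the lowest (-0.09).

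Other up-regulated genes belonged to families of few called members. The F-box gene Lalb_Chr01g0017941, of a family that selects proteins for degradation, was listed at 0 in control roots and had 4, 3 and 3 at 15 min. The RNA recognition motif gene Lalb_Chr04g0254001 (chromosome 4, 4340146 to 4344396) had 0, 0 and 1 in control roots and 4, 4 and 8 at 15 min, an even difference of 2.32, 2.32 and 2.17 within the flow cells (log2 FC 2.27, SE 0.46). A nuclease gene derived from a harbinger transposase, Lalb_Chr07g0180951, had 1, 0 and 0 against 4, 3 and 13 (log2 FC 2.38, SE 0.51). These 3 genes kept their call with each library left out. So did the galactose-binding gene Lalb_Chr25g0279531, with 1, 0 and 0 in control roots and 7, 9 and 6 at 15 min (log2 FC 2.71, SE 0.74). A second such gene, Lalb_Chr14g0373641, had 1, 0 and 10 against 10, 11 and 15 (log2 FC 2.19, SE 0.73), and was not called without control library 2 (1.45). L-ascorbate oxidases, secreted copper enzymes, were called at low values, with 0, 0 and 1 against 2, 3 and 3 for Lalb_Chr07g0177151 and with 0 throughout against 3, 2 and 1 for Lalb_Chr05g0225531. The former (log2 FC 1.53) was not called without control libraries 1 or 2 (1.36 each) or 15 min libraries 2 or 3 (1.46 each), and the latter (1.53) without 15 min library 1 (1.29). These last 3 genes were chosen after their values had been seen. The Ovule protein gene Lalb_Chr16g0387181 was listed at 0 in control roots and had 1, 3 and 22 at 15 min, and its difference of 2.51 was 1.5, with a *p*-value that no longer passed, without 15 min library 3.

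Of the 78 up-regulated genes, 18 encode uncharacterized proteins. The largest log2 FC of all belonged to Lalb_Chr09g0320861 (chromosome 9, 675337 to 675572), listed at 0 in every control library and at 40, 88 and 77 after 15 min. It was listed at 0, 0 and 187 at 10 min and at 0 in all 20 min libraries, so that it was high in every 15 min library and in a single other one. Its difference in mean log2(value + 1) was 6.04, a value that depends on the 1 added to the zeros and sets no bound on the fold. It was chosen after its values had been seen. Lalb_Chr09g0321801 had 1, 0 and 2 in control roots and 6, 13 and 9 at 15 min (log2 FC 2.45, SE 0.51). Lalb_Chr23g0276751 was listed at 0 in control roots and had 2, 4 and 1 at 15 min, and Lalb_Chr15g0076681 was listed at 0 in control roots and had 2, 5 and 4. For the former the difference of 1.64 was 1.29, under the threshold, without 15 min library 2. In all, 15 of the 78 genes were listed at 0 in every control library. In such a group there is no spread, so both the standard error and the *p*-value can be too small for these genes.

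Of the 20 down-regulated genes, 12 encode uncharacterized proteins, and 5 were listed at 0 in all 15 min libraries. The single gene with an adjusted *p*-value under 0.05 was among them, Lalb_Chr19g0140251. Its difference of -3.87 (SE 0.40, limma adjusted *p* = 0.0083) has no spread at 15 min and rests on control values of 11, 8 and 28. It was also listed at 0 in all 10 and 20 min libraries, with the same difference of -3.87 at both times. Only the control group therefore has spread in this fit, and the SE and the *p*-value can be too small. Without any of the 15 min libraries its adjusted *p*-value no longer passed. The phosphodiesterase I gene Lalb_Chr12g0202201, of enzymes that cleave nucleotide bonds, had 3, 2 and 18 in control roots and was listed at 0 at 15 min (difference -2.61, SE 0.71). Lalb_Chr25g0279501, named as a WD40-like transcription factor, had 10, 5 and 4 in control roots and 0, 2 and 0 at 15 min, without overlap (log2 FC -2.26, SE 0.69). This gene was chosen after its values had been seen. All 3 kept their call with each library left out, but the phosphodiesterase gene lost it without all libraries of flow cell 3 (-1.79).

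A further 2 uncharacterized genes were down-regulated without overlap, and each rested on 1 library. Lalb_Chr20g0122101 had 11, 7 and 20 in control roots and 3, 0 and 5 at 15 min (log2 FC -2.13, SE 0.63), and without 15 min library 2 its log2 FC was -1.37. Lalb_Chr01g0008831 had 1, 2 and 4 in control roots and was listed at 0 at 15 min, and without control library 3 its difference of -1.64 was -1.29. Neither was then called. The uncharacterized gene Lalb_Chr05g0220091, which the study listed as down-regulated at all times, was not called at 15 min (log2 FC -1.90, SE 1.00). Its value rests on control library 3, since without that library it was -0.43, and without control libraries 1 and 2 it was -2.78 and -2.49 and passed. In all, 18 of the 19 genes of the study's list were tested, and 16 were called up and 1 down, but the list was chosen on these same libraries and is not independent evidence.

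The annotation places 93 tested genes, of 135 in the table, on the mitochondrial genome. Of these, 0 were up-regulated, which is near the 0.49% of all tested genes. A further 4 were among the 20 down-regulated genes, while 0.126% of all tested genes were called downward. The summed value of these genes nevertheless varied widely, with 872, 1087 and 3254 in control roots and 1045, 642 and 6527 at 15 min, and their median log2 FC was -0.06. The NADH dehydrogenase subunit gene Lalb_Chr00c39g0409261, of complex I of the respiratory chain, had 16, 7 and 9 in control roots and 6, 1 and 1 at 15 min, without overlap (log2 FC -1.87, SE 0.75). The oxidoreductase gene Lalb_Chr00c21g0406161 had 13, 6 and 8 against 4, 1 and 1 (log2 FC -1.82). Their values run so close in every library that both may count the same reads. Both calls were lost without control library 1 (-1.56 and -1.55), 15 min library 2 or 15 min library 3 (-1.57 and -1.60 each), and the latter also without control library 3 (-1.87). The uncharacterized genes Lalb_Chr00c29g0407931 and Lalb_Chr00c29g0407861 had 5, 8 and 7 against 3, 0 and 0 and 1, 4 and 7 against 2, 0 and 0. Their log2 FC of -2.25 and -1.58 were -1.92 and -1.31 without 15 min library 2 or 3, and neither was then called. The latter was also not called without control libraries 2 and 3 (-1.47 and -1.13). These 4 genes were chosen after their values had been seen.

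The time of 15 min was also set against the mean of the 10 and 20 min libraries, which needs no control. In this comparison 15 genes were higher (0.0942%) and 17 lower (0.107%) at 15 min by the same thresholds, 217 had a raw *p*-value no larger than 0.05 (1.36%), and 0 had an adjusted one in limma. Without 15 min library 2 or 3, the 32 genes became 95 and 116. The gene Lalb_Chr02g0156671 (chromosome 2, 14614212 to 14614627) is named as a glycerophosphodiester phosphodiesterase. That family breaks down the head groups of membrane lipids and is known from phosphate-starved roots. The gene also carries the GO term for protein kinase activity, so its annotation does not settle what it does. After 15 min its values were 0, 0 and 3, against 12, 5 and 23 after 10 min and 11, 10 and 8 after 20 min. Control roots had 16, 2 and 20. All 15 min libraries were below all 10 and 20 min libraries, whereas control library 2 lay within the range at 15 min. The log2 difference was -2.85 against the mean of 10 and 20 min (SE 0.68) and -2.69 against the control (SE 0.78), and the former kept its call with each 15 min library left out, the latter with each of the 6 libraries.

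The other genes called in this comparison whose 3 and 6 values did not overlap are uncharacterized. Lalb_Chr24g0399221 was at 5 in each 15 min library, against 17, 9 and 16 at 10 min and 35, 33 and 8 at 20 min (log2 difference -1.58, SE 0.47). Its call ended with median-of-ratios scaling (-1.38), equal totals (-1.35) and also with a pseudocount of 5. Lalb_Chr02g0153931 had 2, 7 and 2 at 15 min and was listed at 0 in all 10 and 20 min libraries, and its control values were 3, 0 and 0. Lalb_Chr00c21g0405481, which the annotation places on the mitochondrial genome, had 42, 36 and 32 at 15 min, against 21, 6 and 13 at 10 min and 5, 0 and 0 at 20 min (log2 difference 2.95, SE 0.68). With 36, 9 and 62, its control libraries covered the level at 15 min. Lalb_Chr20g0108111 had 12, 138 and 167 at 15 min, below the 227, 201 and 2223 at 10 min and the 186, 477 and 287 at 20 min. Its log2 difference of -2.47 was -1.28 and not called without 15 min library 1, and it was also not called with the filter at a value of 5. Genes with a protein name were called here too with overlapping values, such as the CLE gene Lalb_Chr05g0218731 (log2 difference -1.92, SE 0.78).

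**Figure D5:**
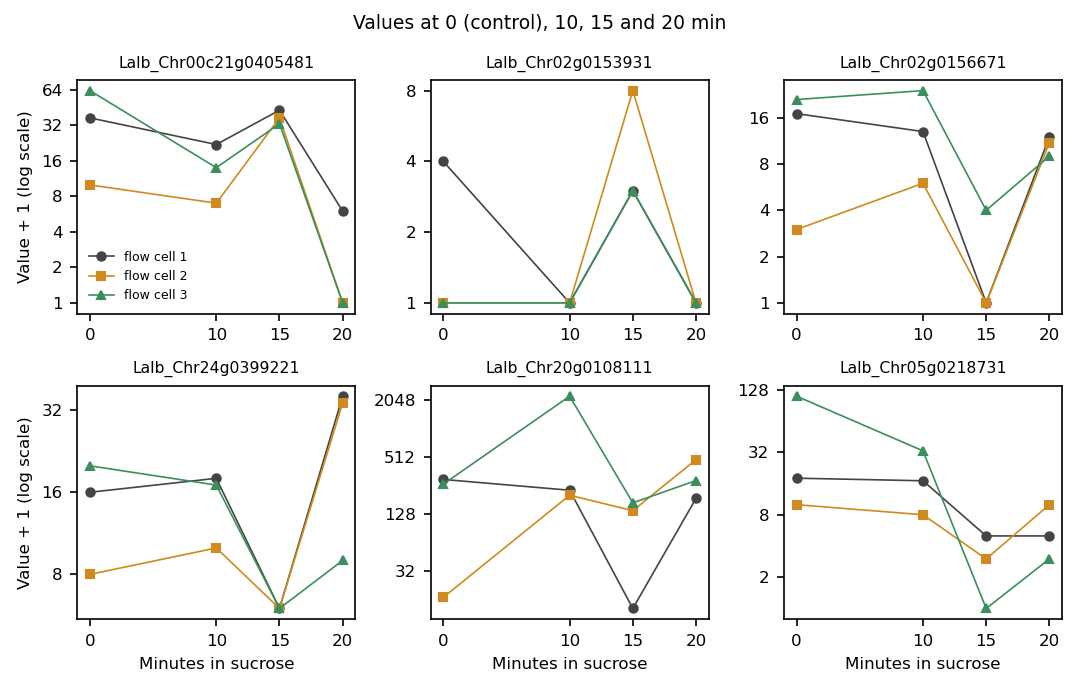
Deposited values plus 1 (log scale) of 6 genes at 0 (control), 10, 15 and 20 min, with 1 line for each flow cell, which joins libraries of different plants. The glycerophosphodiester phosphodiesterase gene Lalb_Chr02g0156671 (top right) is at 0, 0 and 3 at 15 min and between 8 and 11 at 20 min, whereas the CLE gene Lalb_Chr05g0218731 (bottom right) stays low at 20 min with 4, 9 and 2.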

How the data were processed

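RNA of 12 root libraries (3 each for control, 10, 15 and 20 min in sucrose) was sequenced as Nanopore cDNA. Per the methods, the authors oriented reads with Pychopper, aligned them with Minimap2 to CNRS_Lalb_1.0, assembled with StringTie and quantified with Salmon. The authors deposited a value per gene, named CPM, that is a whole number and was therefore treated as a score of unknown scale, so that no count model, interval or floor could be used. A second deposited table holds the authors' own comparisons (fold changes, standard errors, statistics, *p*-values and adjusted *p*-values, made with DESeq2) and was not used.

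Genes that reached a value of 1 in 3 or more of the 6 libraries were tested with limma 3.58.1 (R 4.3.3, trended empirical Bayes) on log2(value + 1) over all 12 libraries in 4 groups, without a flow cell term. The call was the study's, a log2 FC of 1.5 or more in either direction with raw *p* no larger than 0.05, with Benjamini-Hochberg adjustment beside it. Tables and plots used Python 3.11.15, numpy 2.4.6, pandas 2.3.3 and matplotlib 3.10.9. The fit was also run on simulated data with large changes in higher-valued genes and no flow cell effect. That run does not cover calls at low values.

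Genes named were the 12 up- and 6 down-regulated non-overlapping genes with the smallest *p*, every gene with an adjusted *p* of at most 0.05, up to 3 called members per gene list, the study's list, up to 3 higher and 3 lower genes with the smallest *p* among those called, without overlap, at 15 min against 10 and 20 min (2 and 3 were found), and the 5 up and 5 down with the smallest *p* among genes with a mean of at least 50. Others are marked where they appear. Members, lists and tests were chosen with earlier results of these data known. All 23427 identifiers were found in the RefSeq annotation of CNRS_Lalb_1.0, from which positions were taken, and protein names and GO terms came from the deposited table (11855 tested genes had a GO term).

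Replicate numbers stand for flow cells. Deviations from the group means of libraries with the same number correlated at -0.01, -0.06 and 0.65 in the control and 15 min groups, against -0.49 to 0.60 for different numbers. Alternatives were another pseudocount, filter, scaling or set of libraries, the flow cell as a block, and leaving out each library.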

Additional observations from a re-analysis of the deposited data

Results flagged for a closer look

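The following 5 genes, all uncharacterized except Lalb_Chr02g0156671, differed between 15 min and the mean of 10 and 20 min. This was by the test of that difference, without overlap between the 3 and 6 libraries. The log2 difference was 2.95 for Lalb_Chr00c21g0405481, 2.06 for Lalb_Chr02g0153931 and -2.85 for the glycerophosphodiester phosphodiesterase gene Lalb_Chr02g0156671. It was -1.58 for Lalb_Chr24g0399221 and -2.47 for Lalb_Chr20g0108111. All have unadjusted limma *p*-values, and none had an adjusted *p* under 1. For Lalb_Chr20g0108111 the log2 difference was -1.28 without 15 min replicate 1, and without all libraries of flow cell 3 it was -2.58 and not called, as with the filter at a value of 5. Lalb_Chr24g0399221 was not called with median-of-ratios scaling (-1.38), equal totals (-1.35) or a pseudocount of 5, which also ended the calls of Lalb_Chr02g0153931 (0.74) and Lalb_Chr02g0156671 (-1.42).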

How the results depend on the processing

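The number of up-regulated genes was 202 with a pseudocount of 0.5, 13 with 5, 33 with a filter at a value of at least 5 and 170 without all libraries of flow cell 3, an alternative chosen after seeing the data. The down-regulated genes numbered 56, 4, 9 and 52 under the same alternatives, 31 with scaling to equal totals, 32 with the flow cell as a replicate block and 39 with the block and median-of-ratios scaling. Of the 78 up-regulated genes, 71 kept their call with median-of-ratios scaling and 70 with scaling to equal totals. With each library left out the counts of called genes ranged from 72 to 195 up and from 26 to 55 down. The share of calls that were up was 79.6%, and 56.7%, 88.2% and 62.1% without control replicate 2, control replicate 3 and 15 min replicate 3. The single gene with an adjusted *p* of at most 0.05 was lost with a pseudocount of 5, the filter at 5, the 6 libraries alone or without flow cell 3 (0 genes each), and the count ranged from 0 to 2 with each library left out. Between 15 min and the mean of 10 and 20 min, 79, 6, 11 and 109 genes were called with a pseudocount of 0.5, of 5, the filter at 5 and without flow cell 3, and 43 to 116 with each 15 min library left out. The 10 and 20 min libraries were not left out in turn. The replicate block lost none of the 56 named calls, and a pseudocount of 5 lost 42. Fitting the 6 libraries alone ended 7 of 51 named calls. None of the named called genes turned its direction in the alternatives in which it was tested. The cause of these shifts was not tested. Low values limit the precision, since 61.6% of the tested genes had a mean under 5.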
